A study of Mus musculus with 24 samples.

Results

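The genes described here are 8 genes of glycine, creatine and methionine metabolism in the mouse pancreas, out of the 36806 genes in the deposited expression table: Gatm, Gamt, Gnmt, Ahcy, Cbs, Cth, Slc38a5 and Sephs2. The set was chosen by measured values of these libraries, the much lower RNA of Gatm, Gnmt, Slc38a5 and Sephs2 after caerulein, and the other 4 genes belong to the same metabolism. The differences between times are therefore given below as values with no test. The tests on the members are those of genotype, a difference that the choice did not name. The caerulein values of HET as well as WT could enter the choice, however, so the genotype tests after caerulein are not independent of it.

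Poly(A) RNA of whole pancreas was sequenced from C57BL mice carrying either both copies of Nr5a2 (+/+, WT below) or a single copy (+/-, HET below). Nr5a2 encodes a nuclear receptor of acinar cells. Pancreas was taken from each genotype after saline, or 8 h, 24 h or 48 h after the first of 7 hourly injections of caerulein at 50 µg/kg, which makes 8 groups of 3 animals and 24 libraries. Caerulein is an analogue of the hormone cholecystokinin whose repeated injection overstimulates the exocrine pancreas, here to a mild acute pancreatitis. The saline and 24 h libraries followed an earlier preparation guide with 10 PCR cycles, and the 8 h and 48 h libraries a later version with 8 cycles. One WT saline animal, replicate 3, appears under its title in neither list of the protocol. A difference between 8 h or 48 h on one side and saline or 24 h on the other therefore cannot be told apart from a difference between the guides, whereas the genotypes were compared within 1 guide, except that the guide of this saline animal is not known. The labels give no age or sex, and do not say which part of Nr5a2 the mutant allele lacks.

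Values are FPKM, fragments scaled by transcript length and by a factor per library whose setting is not given. Levels can be set side by side between genes, but the number of reads behind them is unknown. The 24 libraries summed to between 217205 and 1400108 FPKM, with the lowest sum in HET 48 h replicate 3. Nr5a2 averaged 10.7 ± 1.72 FPKM in WT and 8.63 ± 0.557 FPKM in HET saline pancreas (SD, n = 3). Its ranges in the 2 genotypes did not touch in saline or at 8 h, and overlapped at 24 h and 48 h. Acinar markers were the most abundant of the cell type markers examined: 16 markers with a value in every group summed to between 3.48e+05 and 4.69e+05 FPKM in WT saline libraries. Hepatocytes also use most of these enzymes, but the 14 hepatocyte markers summed to at most 69.5 FPKM in any library, Cyp3a11 was at 0 in all of them and albumin did not pass 2.68 FPKM.

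Gatm (glycine amidinotransferase) joins arginine and glycine to guanidinoacetate, and Gamt then methylates guanidinoacetate to creatine with S-adenosylmethionine as the donor. Gnmt disposes of surplus S-adenosylmethionine by methylating glycine to sarcosine. Both methylations leave S-adenosylhomocysteine, which Ahcy splits into adenosine and homocysteine, and Cbs and Cth carry homocysteine through cystathionine to cysteine. Slc38a5 is a plasma membrane transporter of glutamine, glycine, serine and other small neutral amino acids. Sephs2 makes selenophosphate, the selenium donor for selenocysteine, and is a selenoprotein itself. The exocrine pancreas is known as a site of creatine precursor synthesis and, because it secretes so much protein, of heavy amino acid uptake.

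The start regions of the 4 genes that led to the choice are shown because these genes followed distinct courses after caerulein, Gatm and Sephs2 one and Gnmt and Slc38a5 another. Each runs from 250 bases before to 50 bases after an annotated RefSeq start on GRCm38.p6, 5′ to 3′ on the strand of the gene. Gatm lies at chr2:122611228-122611527 and Gnmt at chr17:46729116-46729415, both on the minus strand. Slc38a5 lies at chrX:8271131-8271430 on the plus strand and Sephs2 at chr7:127274010-127274309 on the minus strand. Capitals mark CACCTG on either strand, an E-box of the kind bound by the acinar PTF1 complex. They also mark AAGGNCA on either strand, a looser form of the core that NR5A receptors bind, with any base at N.
Gatm: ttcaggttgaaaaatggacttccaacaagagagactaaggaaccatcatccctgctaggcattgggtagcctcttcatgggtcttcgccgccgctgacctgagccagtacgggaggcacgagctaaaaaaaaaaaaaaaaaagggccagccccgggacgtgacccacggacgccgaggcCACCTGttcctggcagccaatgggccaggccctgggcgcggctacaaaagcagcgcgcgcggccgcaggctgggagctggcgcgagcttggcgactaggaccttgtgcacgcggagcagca
Gnmt: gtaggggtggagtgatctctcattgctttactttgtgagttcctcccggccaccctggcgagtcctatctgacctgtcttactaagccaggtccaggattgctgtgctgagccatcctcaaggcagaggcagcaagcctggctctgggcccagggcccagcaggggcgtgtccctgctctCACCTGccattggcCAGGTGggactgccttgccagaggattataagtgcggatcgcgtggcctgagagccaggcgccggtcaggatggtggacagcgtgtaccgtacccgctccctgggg
Slc38a5: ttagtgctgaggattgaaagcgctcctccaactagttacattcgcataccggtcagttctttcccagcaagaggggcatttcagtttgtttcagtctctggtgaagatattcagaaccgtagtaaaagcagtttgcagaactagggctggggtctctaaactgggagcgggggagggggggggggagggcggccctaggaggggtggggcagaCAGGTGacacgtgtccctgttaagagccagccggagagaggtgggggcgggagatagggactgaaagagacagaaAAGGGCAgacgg
Sephs2: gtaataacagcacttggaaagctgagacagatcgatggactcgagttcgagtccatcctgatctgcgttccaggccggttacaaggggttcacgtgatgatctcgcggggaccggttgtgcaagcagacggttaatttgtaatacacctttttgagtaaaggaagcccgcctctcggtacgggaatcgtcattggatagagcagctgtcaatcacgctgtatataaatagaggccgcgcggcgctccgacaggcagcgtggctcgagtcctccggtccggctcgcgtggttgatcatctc

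CACCTG was present in 3 of the 7 member promoters in the table, those of Gatm, Gnmt and Slc38a5, and in 20.2% of all 32851 promoters of the same length. In Gatm and Gnmt its first base lay 71 and 70 bases before the start, and Gnmt had another copy on the opposite strand, 56 bases before the start. The annotated Gnmt gene reaches to position 46729211, upstream of the start used for its window, so the Gnmt distances hold for that start only. AAGGNCA was present in 2 of the 7, Slc38a5 and Ahcy, and in 20.3% of all promoters. The match was AAGGGCA in Slc38a5 and AAGGCCA in Ahcy. With any base allowed at N, these counts are wider than counts of NR5A sites. The other motifs searched, each on both strands, were CAGCTG (16.3% of all promoters), CATATG (3.91%), the RBPJ core TTCCCA (25.6%), the ATF4-type TGATGNAA (3.97%) and TATAAA (13.6%). Of these, Sephs2 held CAGCTG and TATAAA, Slc38a5 held TTCCCA, and the 7 promoters held no CATATG or TGATGNAA. Cth had no entry. Matches to these other motifs are left in lower case above, and a match of letters is a description of the sequence only.

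Gatm had the highest mean of the members in WT saline pancreas, with 260, 234 and 224 FPKM, against 240, 151 and 176 FPKM in HET. At 8 h it stood at 13.7, 13.7 and 10.1 FPKM in WT and 11.6, 10.5 and 13.3 FPKM in HET, which is 5.22% and 6.24% of the saline means. All 6 libraries at 8 h were below every other library of the study for this gene. At 24 h WT animals had 64.9, 82.5 and 84.2 FPKM and HET animals 15.3, 18.7 and 15.9 FPKM. At 48 h the values were 115, 54.8 and 97.8 FPKM in WT and 43.8, 25.9 and 14.6 FPKM in HET. The WT mean was thus back at 37.3% of saline by 48 h and the HET mean at 14.9%, with no overlap between the genotypes at either of the last time points.

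Gamt, the second enzyme of creatine synthesis, took a slower course. In saline it measured 203, 263 and 207 FPKM in WT and 230, 136 and 150 FPKM in HET. At 8 h the means were 45.3 ± 10.6 FPKM in WT and 38.6 ± 3.26 FPKM in HET (SD, n = 3), 20.2% and 22.4% of saline. The genotypes overlapped at both of these points. At 24 h WT libraries had 31.8, 49.3 and 35.9 FPKM and HET libraries 9.66, 14.7 and 11.5 FPKM. At 48 h they had 115, 51.3 and 80.2 FPKM in WT and 24, 16.3 and 4.54 FPKM in HET. WT and HET were separate at 24 h and 48 h, where the HET means were 6.95% and 8.69% of HET saline.

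The balance of the 2 creatine enzymes moved with time. Within a library, the difference between Gatm and Gamt in log2(FPKM + 1) was near 0 in WT saline (0.10 ± 0.26; SD, n = 3) and -1.76 ± 0.54 in WT at 8 h. It was 0.98 ± 0.24 in WT at 24 h and 0.13 ± 0.14 in WT at 48 h. Gatm was therefore the scarcer transcript at 8 h and the more abundant at 24 h, in all 3 WT animals each time. HET libraries gave -1.63 ± 0.06 at 8 h and 0.46 ± 0.14 at 24 h.

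Gnmt had its lowest WT values at 24 h, not at 8 h. Saline libraries had 97.8, 108 and 93.2 FPKM in WT and 133, 86.3 and 86.7 FPKM in HET. At 8 h WT animals had 24.4, 31.3 and 35 FPKM and HET animals 23, 20.9 and 20.5 FPKM, so that each HET value was below each WT value. This middle level did not last. By 24 h the values were 1.97, 4.96 and 3.08 FPKM in WT and 1.66, 0.92 and 0.772 FPKM in HET, 3.35% and 1.10% of the saline means. At 48 h WT libraries were at 39.4, 15.3 and 23.1 FPKM, 26% of saline, while HET libraries were at 4.32, 2.03 and 0.265 FPKM, 2.16% of saline. The value of 0.265 FPKM, in HET replicate 3, was the lowest of any member in any library.

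Gnmt and Gatm, which both draw on glycine, were out of step. In log2(FPKM + 1), Gnmt minus Gatm in WT was -1.26 ± 0.15 after saline (SD, n = 3), then 1.21 ± 0.46, -4.22 ± 0.36 and -1.78 ± 0.26 at the 3 caerulein times from the earliest to the latest. The HET values were -0.89 ± 0.11, 0.82 ± 0.20, -3.08 ± 0.40 and -3.28 ± 0.30 in the same order. Gnmt was the more abundant of the pair at 8 h only, in all 6 libraries.

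**Figure D1:**
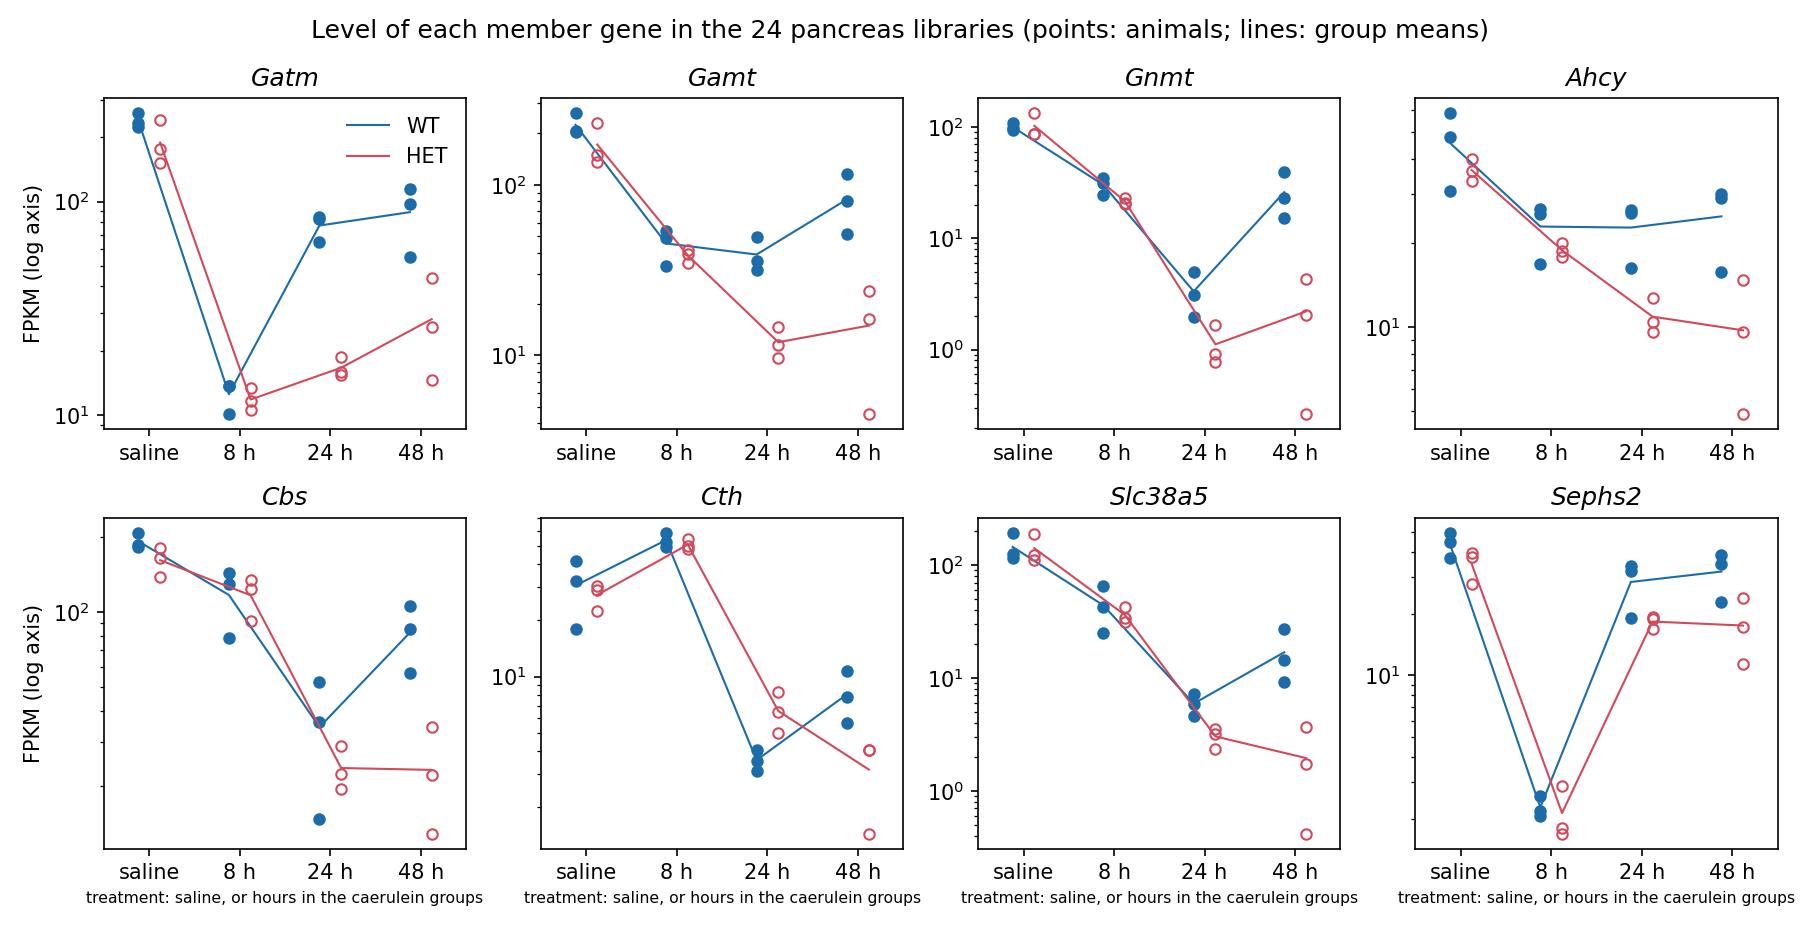
FPKM of the 8 genes (log axis) in each of the 24 libraries by treatment; filled blue points are WT animals, open red points HET animals, and lines join group means. Gatm and Sephs2 were lowest at 8 h, Gnmt, Slc38a5, Cbs and Cth were lowest in WT at 24 h, and Cth was highest at 8 h; the HET 48 h points lie below the WT 48 h points for every gene but Sephs2, whose points overlap.

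Ahcy, the hydrolase shared by the methylation reactions, changed little between the caerulein times in WT. It ranged from 30.8 to 58.4 FPKM in WT saline and from 33.4 to 39.9 FPKM in HET saline. WT means at 8 h, 24 h and 48 h were 22.9 ± 5.31, 22.7 ± 5.55 and 24.9 ± 7.89 FPKM (SD, n = 3), between 49.7% and 54.5% of saline. HET means were 18.8 ± 1.11, 10.9 ± 1.62 and 9.73 ± 4.91 FPKM at the same times. Ahcy shares 2083 bases at 99.7% identity with the gene model Gm4737, and Sephs2 shares 792 bases at 100% identity with Gm44729. How the authors assigned reads between such copies is not given in the sources used here, so these levels are uncertain to that extent.

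Cbs and Cth, the successive enzymes of transsulfuration, separated at 8 h. Cbs measured 182, 208 and 186 FPKM in WT saline and 181, 138 and 165 FPKM in HET saline. Its means at 8 h were 117 FPKM in both genotypes (SD 33.9 in WT and 22.1 in HET, n = 3), 60.9% and 72.3% of saline, and its means at 24 h were 34.5 ± 18.9 FPKM in WT and 23.6 ± 4.87 FPKM in HET. At 48 h WT libraries had 106, 56.7 and 85.3 FPKM and HET libraries 34.6, 22.2 and 12.9 FPKM. The WT mean of Cbs was thus higher at 48 h than at 24 h, a step that lies across the guides, while the HET means of the 2 times were alike.

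Cth was the member that was higher, not lower, at 8 h. Saline values were 41.4, 32.6 and 18 FPKM in WT and 29.2, 22.3 and 30.5 FPKM in HET. At 8 h they were 52.6, 49.5 and 58.8 FPKM in WT and 49.8, 48 and 54.4 FPKM in HET, above every saline library and 175% and 186% of the saline means. At 24 h WT animals had 3.14, 4.04 and 3.55 FPKM and HET animals 8.24, 6.44 and 4.97 FPKM. This was the one occasion on which all 3 HET values of a member lay above all 3 WT values. At 48 h the order was the other way round, with 10.7, 5.67 and 7.78 FPKM in WT and 4.07, 4.04 and 1.45 FPKM in HET. The step up from saline to 8 h lies across the guides, whereas both later values can be compared within the later guide: Cth was 6.66-fold lower at 48 h than at 8 h in WT and 15.9-fold lower in HET.

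Slc38a5 was, like Gnmt, lowest in WT at 24 h. Saline pancreas had 116, 195 and 126 FPKM in WT and 189, 124 and 112 FPKM in HET. At 24 h it had 4.6, 7.28 and 5.92 FPKM in WT and 2.35, 3.55 and 3.2 FPKM in HET, 4.07% and 2.14% of saline, after means of 44.2 ± 20.3 and 36.2 ± 5.94 FPKM at 8 h (SD, n = 3). At 48 h WT animals had 27.2, 9.18 and 14.4 FPKM and HET animals 3.7, 1.73 and 0.417 FPKM. The 48 h HET mean was 1.38% of HET saline, the lowest share of saline that any member except Gnmt reached. Across the 24 libraries Slc38a5 and Gnmt had a Pearson r of 0.97 in log2(FPKM + 1), a description over libraries that share their groups and scaling. The 2 genes parted at 48 h in WT, where Slc38a5 stood at 11.6% of saline and Gnmt at 26%. Slc38a5 minus Gnmt on the log2(FPKM + 1) scale was 0.72 ± 0.22 at 24 h and -0.61 ± 0.08 at 48 h in WT (SD, n = 3).

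Sephs2 was very low at 8 h and much nearer to its saline level by 24 h. Saline libraries had 49.6, 44.6 and 37.4 FPKM in WT and 37.7, 28 and 39.5 FPKM in HET. At 8 h the values were 2.58, 2.05 and 2.17 FPKM in WT and 1.69, 1.8 and 2.89 FPKM in HET, 5.17% and 6.06% of saline. All libraries of the other times were higher. At 24 h WT libraries had 19, 32.3 and 34.2 FPKM and HET libraries 19.2, 18.7 and 16.9 FPKM. At 48 h WT libraries had 38.5, 22.8 and 34.8 FPKM and HET libraries 23.9, 17.1 and 11.4 FPKM. Within the later guide, the 48 h mean was 14.1-fold above the 8 h mean in WT and 8.21-fold above it in HET. Sephs2 and Gatm, with a Pearson r of 0.85 over the 24 libraries, shared this early trough, whereas Cth had its highest values at that time (r of -0.48 with Sephs2). At 24 h and 48 h both Sephs2 and Cth were below their saline means.

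**Figure D2:**
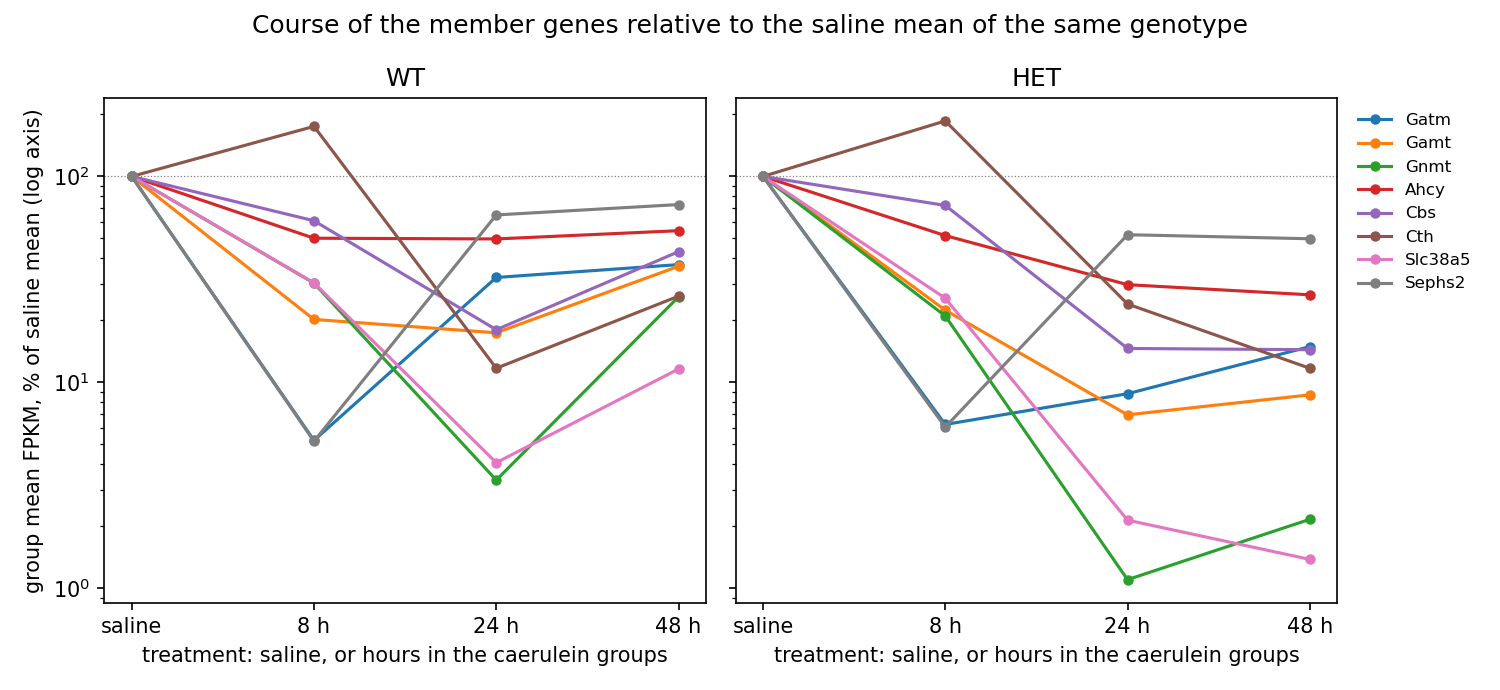
Group mean FPKM of each gene as a percentage of the saline mean of its genotype (log axis), WT on the left and HET on the right, with no error bars; the spread of the animals is in the plot of FPKM by library. Gatm and Sephs2 reached 5.22% and 5.17% of saline in WT at 8 h, Gnmt and Slc38a5 3.35% and 4.07% at 24 h, and Cth 175% at 8 h.

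Acinar marker RNA was lower at the same times, with 15 of 16 markers tested fallen from saline to 24 h in WT (limma, median difference -3.10), and in bulk tissue fewer acinar cells and less RNA per acinar cell cannot be told apart. The 16 acinar markers summed to between 5.67e+04 and 1.02e+05 FPKM in WT at 8 h and between 3.25e+04 and 4.36e+04 FPKM at 24 h, against at least 3.48e+05 FPKM in WT saline. The distance of each member from the mean of these markers, in log2(FPKM + 1), shows which members were low beyond them. Gatm lay at -3.89 ± 0.11 in WT saline and -5.78 ± 0.62 at 8 h, and Sephs2 at -6.31 ± 0.09 and -7.82 ± 0.51 (SD, n = 3). At 24 h, both were nearer to the markers than in saline, with -2.58 ± 0.24 and -4.02 ± 0.30. Gnmt and Slc38a5 did the reverse, from -5.14 ± 0.10 and -4.63 ± 0.37 in WT saline to -4.57 ± 0.16 and -4.13 ± 0.26 at 8 h and -6.80 ± 0.15 and -6.08 ± 0.09 at 24 h. Cth went from -6.88 ± 0.46 to -3.75 ± 0.36 at 8 h on this scale, while Gamt hardly moved (-3.99 ± 0.19 and -4.02 ± 0.12). These distances are descriptions of the contrasts that chose the genes.

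The effect of losing a copy of Nr5a2 was tested with limma on log2(FPKM + 1) across 12871 genes, all 8 members among them, with p-values adjusted over all genes of a comparison. In saline, 0 of the 8 members passed an adjusted p of 0.05, where 2.36% of all genes did, and 0 had an unadjusted p under 0.05. At 8 h, 0 of the 8 passed, against 0.218% of all genes, and again 0 had an unadjusted p under 0.05. The member differences in saline ran from -0.41 ± 0.39 (SE) for Gamt to 0.01 ± 0.39 for Gnmt, and at 8 h from -0.46 ± 0.39 for Gnmt to 0.02 ± 0.37 for Cbs. The HET and WT values of 7 of the 8 members overlapped at each of these points. Cbs in saline (9.43% of all genes had every HET value below every WT value) and Gnmt at 8 h (6.19%) were the exceptions, both lower in HET.

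At 24 h, both creatine enzymes were lower in HET. Gatm was 4.42-fold lower on the log2(FPKM + 1) scale, a difference of -2.14 ± 0.29 (SE) with a limma adjusted p of 0.000583. Gamt was 3.08-fold lower, with -1.62 ± 0.39 and an adjusted p of 0.0188. These were 2 of 8 members lower, against 3% of all genes called lower, and the median difference of the members was -0.87, against 0.001 for all genes. Every HET value lay below every WT value for 5 of 8 members (Gatm, Gamt, Gnmt, Ahcy and Slc38a5), as for 11.7% of all genes. Gnmt (2-fold lower, adjusted p = 0.14), Ahcy (-0.97 ± 0.31, adjusted p = 0.0653) and Slc38a5 (-0.78 ± 0.40, adjusted p = 0.288) did not pass. Cth stood at 0.70 ± 0.28 in the other direction, with an adjusted p of 0.157; all 3 HET values were above all 3 WT values, as for 13% of all genes. The Gamt call was lost when WT replicate 2, HET replicate 1 or HET replicate 3 was left out (highest adjusted p 0.0875), and the Gatm call was kept without any one of the 6 animals. Neither call held with scaling to acinar markers, where Gatm was at -0.24 (adjusted p = 0.74) and Gamt at 0.26 (adjusted p = 0.718).

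At 48 h, all 8 members were lower in HET on the authors' scale (7 of them turned with scaling to acinar markers, given below), where 6.37% of all genes were called lower, and their median difference was -1.77, against 0.03 for all genes. Gnmt differed most, at -3.20 ± 0.39 (SE), 9.20-fold, with a limma adjusted p of 6.64e-05. Slc38a5 followed with -2.64 ± 0.40, 6.24-fold (adjusted p = 0.000412), and Gamt with -2.56 ± 0.39, 5.90-fold (adjusted p = 0.000412). The glycine methyltransferase, the amino acid transporter and the creatine-forming methyltransferase thus led the set. Cbs was at -1.85 ± 0.37 (adjusted p = 0.00353) and Gatm at -1.70 ± 0.29 (adjusted p = 0.00108). Ahcy was at -1.33 ± 0.31 (adjusted p = 0.00873) and Cth at -1.15 ± 0.28 (adjusted p = 0.0127). Sephs2 differed least, at -0.86 ± 0.25 or 1.82-fold (adjusted p = 0.0293). All 3 HET values were below all 3 WT values for the 7 members other than Sephs2, as for 16.3% of all genes.

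Single animals and the shared estimate of spread weigh on the 48 h calls. HET replicate 3 was the lowest of its group for all 8 members and had the lowest acinar marker sum of the study, 636 FPKM. Without it, or without WT replicate 1, 5 of the 8 members remained called, the calls of Ahcy, Cth and Sephs2 being lost. Without WT replicate 3, 6 remained called. Of all 12867 genes, 819 were called lower with every animal kept. That number was 317 without HET replicate 3, 328 without WT replicate 1 and 424 without WT replicate 3. Gatm, Gamt, Gnmt, Cbs and Slc38a5 stayed past the threshold without any one of the 6 animals. With the spread estimated from the 2 compared groups alone, 0 of the 8 passed, with adjusted p between 0.0737 for Gnmt and 0.138 for Sephs2. That setting called few genes of any kind, 7 higher and 12 lower of 12867, against 753 and 819 in the main fit.

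**Figure D3:**
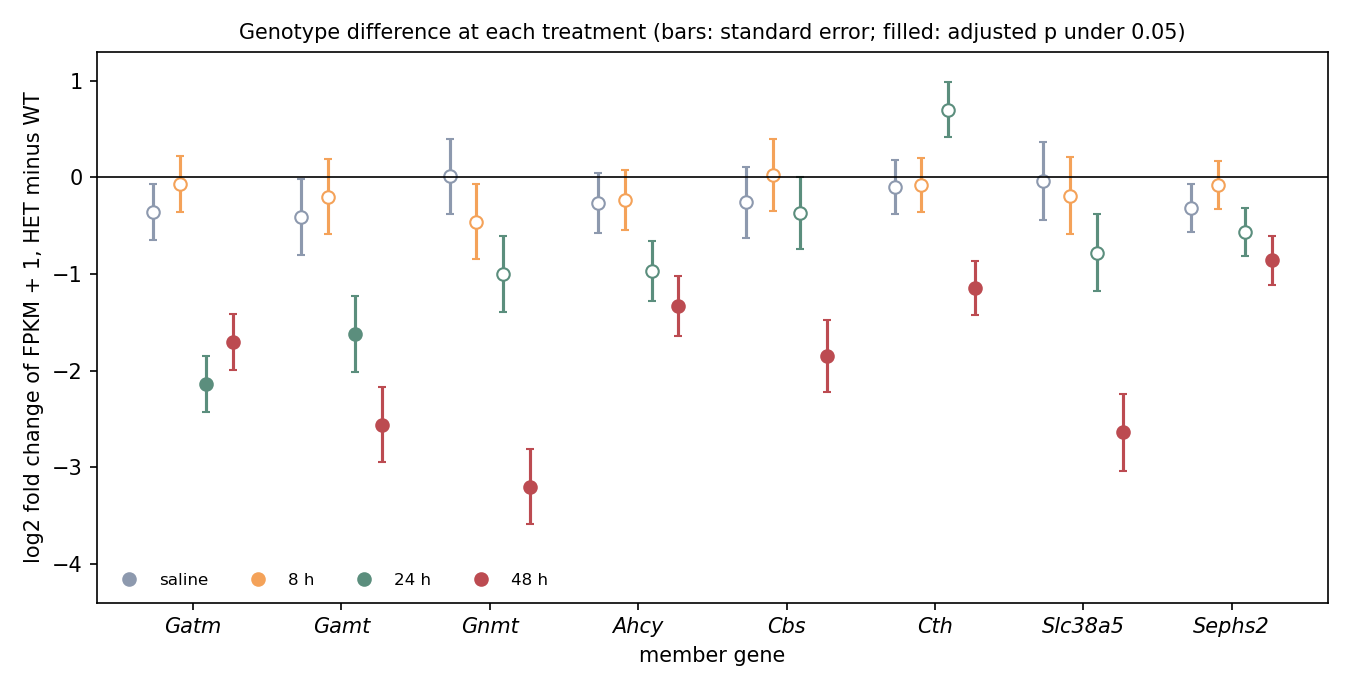
Difference in log2(FPKM + 1) between HET and WT (HET minus WT, bars are standard errors) for each gene in saline and at 8 h, 24 h and 48 h, with 3 animals per genotype; filled points have a limma adjusted p under 0.05. The saline and 8 h points are all open, Gatm and Gamt are filled at 24 h, all 8 genes are filled at 48 h, and Cth at 24 h is the one point well above 0.

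Whether the genotype difference itself changed with time was tested as an interaction within each guide, apart from the saline animal whose guide is not known. The interactions are built from the caerulein values that led to the choice of Gatm, Gnmt, Slc38a5 and Sephs2, so they are not independent of that choice. From saline to 24 h, Gatm passed, with an interaction of -1.78 ± 0.41 (SE) and a limma adjusted p of 0.0286, in 1 of 8 members against 1.24% of all genes called in that direction. Gatm stood at 32.3% of its saline mean in WT and 8.80% in HET. The call was lost without any one of WT saline replicate 2, WT saline replicate 3, WT 24 h replicate 2, HET 24 h replicate 1 and HET 24 h replicate 3 (highest adjusted p 0.0681). It was also lost with the total taken without digestive enzyme and Reg genes (-1.64, adjusted p = 0.0958) and with scaling to acinar markers (-0.14, adjusted p = 0.901). In this interaction 5 of 10 adipocyte markers (median -3.83), 3 of 12 fibroblast and stellate markers (median -1.52) and 2 of 16 acinar markers (median -1.57) were lower as well. The adipocyte markers summed to between 73.6 and 154 FPKM in WT and between 304 and 651 FPKM in HET saline, and to between 135 and 444 FPKM in WT and between 54.3 and 147 FPKM in HET at 24 h. The fibroblast and stellate markers summed to between 228 and 311 FPKM in WT and between 405 and 760 FPKM in HET saline, and to between 546 and 1.02e+03 and between 501 and 667 FPKM at 24 h. No adipocyte, fibroblast or stellate marker was at 0 throughout a group, and the part of these lists in the Gatm interaction was not tested. From 8 h to 48 h, Gnmt passed, at -2.74 ± 0.55 (adjusted p = 0.0293), 1 of 8 members against 0.568% of all genes. Its 48 h mean was 85.8% of the 8 h mean in WT and 10.3% in HET. The Gnmt call held in 4 of the 12 fits that left out 1 animal, and was lost without WT 48 h replicate 1, WT 48 h replicate 3, HET 48 h replicate 2 and each 8 h animal but WT replicate 3 (highest adjusted p 0.106). It held in 4 of the 8 other settings, and with acinar scaling the interaction was -0.40 (adjusted p = 0.688). Slc38a5 (-2.45 ± 0.57, adjusted p = 0.0514) and Gamt (-2.36 ± 0.56, adjusted p = 0.0539) did not pass, and neither was negative with acinar scaling. Leaving out 1 animal gave 0 to 5 members called. It was 5 of the 8 without WT 48 h replicate 2 or HET 48 h replicate 1, and 0 in every fit that lost Gnmt. The number of all 12860 genes called lower moved too, from 73 with every animal kept to 219 and 185 in the first 2 fits. It was between 9 and 34 in the fits that lost Gnmt.

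The 48 h difference moved together with acinar marker RNA. The 16 acinar markers summed to between 3.82e+04 and 9.22e+04 FPKM in WT and between 636 and 1.45e+04 FPKM in HET at 48 h. Of 22 acinar markers tested, 20 were lower in HET at 48 h, with a median difference of -3.92, and at 24 h 6 of 21 were lower, with a median of -1.71. Of 12 macrophage markers, 7 were higher in HET at 48 h, with sums between 1e+03 and 1.77e+03 FPKM against 315 to 1.07e+03 FPKM in WT. Their part in the member differences was not tested.

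The direction of most of these differences turned when the libraries were scaled to acinar markers. With every library scaled to its acinar markers, the median of all genes moved to 3.15 at 48 h. On that scale 94.1% of all genes were called higher in HET and 0.0933% lower, and of the members 5 were called higher and none lower: Gatm at 1.86, Ahcy at 2.12, Cbs at 1.70, Cth at 2.02 and Sephs2 at 2.66. Gamt (0.92), Slc38a5 (0.14) and Gnmt (-0.53) did not pass. All 8 values lay below the median of all genes on the same scale. HET replicate 3 weighs heavily here, with an acinar scaling factor of 0.022 against 0.337 and 0.169 in the other HET libraries. Without it, in a fit added after seeing the data, the median of all genes was 2.04 and 92% of all genes were called higher. Gatm was then at 1.11, Ahcy at 1.40, Cbs at 0.92, Cth at 1.38 and Sephs2 at 1.79, and Gamt passed at 0.48 (adjusted p = 0.047). Slc38a5 changed sign to -0.13 and Gnmt stayed at -0.52, neither called. With the total taken without digestive enzyme and Reg genes, the median of all genes moved by 0.39, and 6 members remained called lower at 48 h. At 24 h, the acinar scaling gave Gatm -0.24 and Gamt 0.26, neither called, with a median of all genes of 1.70, and Cbs (1.56) and Cth (2.57) were called higher, as were 69% of all genes.

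**Figure D4:**
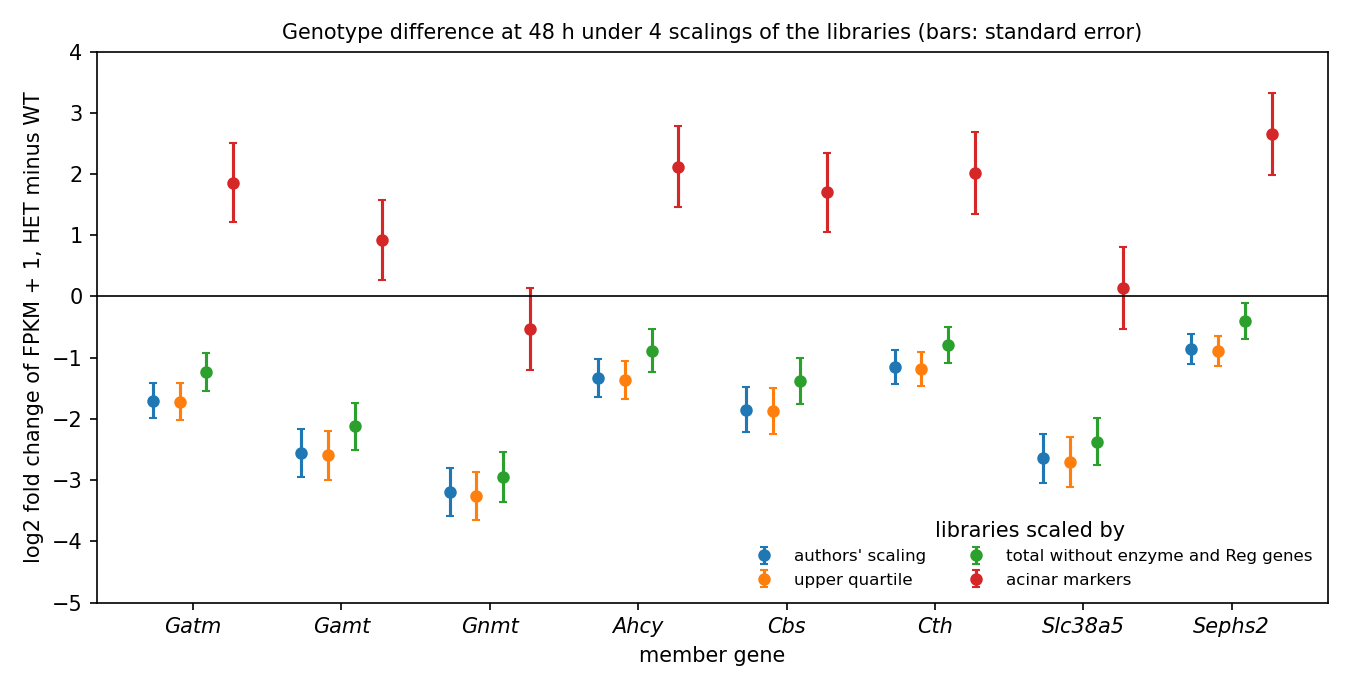
Difference in log2(FPKM + 1) between HET and WT at 48 h (HET minus WT, bars are standard errors, 3 animals per genotype) for each gene under the authors' scaling and 3 others. Under the authors' values, the upper quartile and the total without enzyme and Reg genes every point is below 0, and under scaling to acinar markers all but Gnmt are above 0, with Sephs2 at 2.66.

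The neighbouring steps of these pathways were read from 128 genes in 10 lists, of which 113 were tested. Between the genotypes, 3 were higher and 1 lower in HET in saline (background 1.15% and 1.21%), and 0 differed at 8 h, where 0.218% of all genes did. At 24 h, 2 were higher and 10 lower, against 3.5% and 3% of all genes, and at 48 h 8 were higher and 23 lower, against 5.85% and 6.37%. The median difference over the 113 genes at 48 h was -0.15, against 0.03 for all genes. The split depends on the scaling: with the total taken without enzyme and Reg genes it was 25 higher and 11 lower at 48 h, and with the acinar markers 109 higher and 0 lower. All genes turned with them: 24.4% were higher and 2.57% lower on the first of these scales, and 94.1% and 0.0933% on the second.

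Under the authors' scaling, the methionine cycle enzyme Mat1a, the S-adenosylmethionine synthetase of liver type, averaged 10.7 ± 3.8 FPKM in WT and 1.62 ± 1.42 FPKM in HET at 48 h (SD, n = 3). It was the 1 of 8 listed genes of the cycle that differed (-2.24 ± 0.31, SE; limma adjusted p = 0.000219). Of 18 serine, glycine and one-carbon enzymes, 6 were lower and 0 higher, among them the sarcosine dehydrogenase Sardh, which removes the product of Gnmt (14 ± 4.47 against 4.88 ± 0.851 FPKM, adjusted p = 0.00292). Gcat, of threonine breakdown to glycine, was lower too (47.7 ± 19.1 against 11.9 ± 8.66 FPKM, adjusted p = 0.00338). Of 10 cysteine, sulfide and glutathione enzymes, 3 were lower, led by the thiosulfate sulfurtransferase Tst (-1.26 ± 0.21, adjusted p = 0.000901). Pycr1, of proline synthesis, was among 2 of 7 arginine and ornithine enzymes that were lower (-1.76 ± 0.27, adjusted p = 0.000412).

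Among 21 amino acid transporters at 48 h, 4 were lower and 2 higher in HET. The glycine transporter Slc6a9 was lower (34.5 ± 8.4 against 16.1 ± 6.66 FPKM; adjusted p = 0.0108), and so was the glutamine transporter Slc38a3 (28.3 ± 7.93 against 10.5 ± 7.51 FPKM; adjusted p = 0.015). The large neutral amino acid transporters Slc7a8 (-1.11 ± 0.16) and Slc7a5 (-0.92 ± 0.19) were the other two. Of 4 genes for creatine use, 1 was called, the creatine kinase Ckb, higher in HET with 14.3 ± 4.68 against 5.74 ± 2.16 FPKM (limma adjusted p = 0.0101). Of 10 genes of methionine salvage and polyamines, 4 were lower, with Odc1, the first enzyme of polyamine synthesis, at -0.77 ± 0.20, and 1 was higher, the polyamine acetylase Sat1, at 0.74 ± 0.21. Selenoproteins were divided, with 3 of 20 higher and 2 lower, Selenon at 0.99 ± 0.19 and Selenos at -1.15 ± 0.23. Of 8 genes of selenocysteine synthesis and insertion, 0 passed.

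At 24 h, the genes of the lists that were lower in HET included the threonine dehydrogenase Tdh (5.51 ± 2.58 against 0.666 ± 0.202 FPKM; limma adjusted p = 0.00897) and Slc38a3 (26 ± 4.47 against 7.48 ± 1.05 FPKM; adjusted p = 0.0203). Selenop, the secreted selenium carrier, was also lower (474 ± 73.7 against 293 ± 16.4 FPKM; adjusted p = 0.0312). The glutamate-cysteine ligase subunit Gclc was higher (8.48 ± 4.22 against 15.1 ± 4.11 FPKM; adjusted p = 0.0387). Of the interactions with time, 2 of 113 passed from saline to 24 h, Cdo1 (cysteine dioxygenase) at -3.13 ± 0.60 and the amino acid transporter Slc38a7 at 1.04 ± 0.24 (1.24% of all genes were called lower and 1.07% higher). The interaction to 24 h is the same contrast in which 5 of 10 adipocyte markers were lower, and the part of those markers in the Cdo1 value was not tested. From 8 h to 48 h 2 passed as well, Slc7a8 at -1.42 ± 0.23 and Pycr1 at -1.65 ± 0.38, both lower, as for 0.568% of all genes.

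The rule did not use the levels of the listed genes, although the lists were drawn up with earlier results of these data known. Their changes over time were tested within each guide, apart from the saline animal whose guide is not known. From saline to 24 h, 22 of 113 rose and 47 fell in WT, against 20.5% and 18.7% of all genes, and 25 rose and 50 fell in HET, against 23.9% and 19.8%. These splits held with the upper quartile and turned under the other scalings, to 50 risen and 20 fallen in WT with the total taken without enzyme and Reg genes and to 67 risen and 1 fallen with the acinar markers (54 and 20, and 104 and 1, in HET). On the same 2 scales 57.3% and 60.7% of all genes rose and 3.66% and 0.0934% fell in WT, and 62.4% and 90.9% rose and 4.9% and 0.124% fell in HET. Serine, glycine and one-carbon enzymes were mostly lower in WT, with 12 of 18 fallen and 2 risen. Sardh went from 49.1 ± 10.5 to 5.43 ± 1.62 FPKM (limma adjusted p = 1.42e-07) and the mitochondrial folate enzyme Mthfd2 from 50 ± 9 to 16.3 ± 3.45 FPKM (adjusted p = 3.12e-05). In the methionine cycle Mat1a went from 26.6 ± 5.55 to 3.77 ± 1.37 FPKM, whereas Mat2a, the synthetase of most other tissues, went up from 14.2 ± 4.92 to 22.5 ± 4.46 FPKM (adjusted p = 0.0154). Pstk and Oat were listed at 0 in all 24 h libraries of both genotypes and Inmt in the HET ones; a 0 in a table without read counts can be a missing value, and without these genes 45 fell in WT and 47 in HET.

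From 8 h to 48 h, 34 of 113 rose and 39 fell in WT, against 22.5% and 27.4% of all genes, and 25 rose and 45 fell in HET, against 23.4% and 28.6%. In WT the split was 50 to 28 with the total taken without enzyme and Reg genes, 44 to 31 with the upper quartile and 2 to 13 with the acinar markers, and in HET 56 to 29, 33 to 40 and 86 to 1. Of all genes, 38.9% rose and 11.2% fell in WT on the first of these scales, 33% and 20.1% on the second and 0.482% and 2.7% on the third. The shares in HET were 52% and 9.25%, 32.5% and 21.1%, and 87.3% and 0.552%. Several neighbours of Cth in amino acid supply were high at 8 h like Cth itself. The serine synthesis enzyme Phgdh measured 174 ± 32.5 FPKM at 8 h and 38 ± 9.66 FPKM at 48 h in WT (adjusted p = 2.17e-06), the transporter Slc7a5 143 ± 11.4 and 14.8 ± 2.95 FPKM, and Gclc 275 ± 49.5 and 4.26 ± 0.248 FPKM. Selenop ran the other way, like Sephs2, from 54.3 ± 10.3 FPKM at 8 h to 401 ± 40.9 FPKM at 48 h (limma adjusted p = 2.45e-10). Of 20 selenoproteins, 10 rose and 4 fell, and the thioredoxin reductase Txnrd1 was among the latter, from 57.2 ± 5.15 to 12.8 ± 2.06 FPKM.

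The genes whose profile over the 24 libraries was most like that of each member were ranked by Pearson r of log2(FPKM + 1), as a description over libraries that share groups and scaling. Gnmt was most like Fkbp11 (0.991), Tmed11 (0.989), which is also in the acinar marker list, and Macrod1 (0.987). Slc38a5 was most like Egf (0.987), Gamt most like Ero1lb (0.991) and Cbs most like Rab26 (0.971). Gatm was most like Cldn8 (0.975) and Ahcy most like Ptprn2 (0.97). Cth was most like Asns (0.98), Atf5 (0.976) and Phgdh (0.976). Sephs2 was nearest to Lbh (0.97), Selenop (0.968) and Ankmy2 (0.968). Among the members themselves, r was highest between Gnmt and Slc38a5 and between Gnmt and Cbs, at 0.97 for both pairs, and lowest between Cth and Sephs2.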

How the data were processed

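Whole-pancreas poly(A) RNA of 24 mice was sequenced, 3 per genotype and treatment, with RNA integrity numbers from 6.6 to 9.2 per the labels' protocols. The deposited table holds FPKM per gene and library, as its unit was read from the values and the tools named. The submitters' processing notes name CASAVA 1.8, Bowtie, Cufflinks 2.0.2, Cuffnorm and genome build mm9; the sources used here give neither their order nor their settings. Of 36806 gene IDs, 31840 matched a symbol in the reference table.

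The 12871 genes that reached 1 FPKM in 3 or more libraries were tested with limma 3.58.1 (trend and robust, R 4.3.3) on log2(FPKM + 1), with 1 mean per group, a spread shared by the 8 groups and Benjamini-Hochberg adjustment over all genes. Log2 differences understate changes of low genes. A gene at 0 throughout a group was treated as missing there if every library of some other group reached 100 FPKM (22 genes, none a member). The test was tried on simulated data. FPKM carries no read counts, so depth and counting error are unknown. The p-values set a difference between groups against the spread between animals, which the main fit shares over the 8 groups. Replicates are numbered in accession order. No 2 libraries shared more than 0.683% of values. Copies of members were sought with blastn in GENCODE transcripts (at least 200 bases, 95% identity). Motifs were searched in RefSeq promoters (GRCm38.p6).

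The members and lists were chosen with earlier results of these data known. Named genes are all members, up to 4 genes per list and comparison with the smallest adjusted p, of which some are given, and the 3 genes most alike to each member. Alternatives were a pseudocount of 0.1, no filter, a filter of 5 FPKM in 6 libraries, 3 other scalings, zeros kept, a spread from only the groups compared, leaving out each animal, and acinar scaling without HET 48 h replicate 3, added after seeing the data.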

Additional observations from a re-analysis of the deposited data

Results flagged for a closer look

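On the authors' scale the genotype difference of Gatm differed between 24 h and saline: the interaction was -1.78 ± 0.41 (SE; limma adjusted p = 0.0286), from -0.36 ± 0.29 in saline to -2.14 ± 0.29 at 24 h. This call was kept in 7 of the 12 fits that left out 1 animal and in 6 of 8 other settings, and with scaling to acinar markers the interaction was -0.14 (adjusted p = 0.901). That of Gnmt differed between 48 h and 8 h: the interaction was -2.74 ± 0.55 (adjusted p = 0.0293), from -0.46 ± 0.39 at 8 h to -3.20 ± 0.39 at 48 h. This call was kept in 4 of the 12 fits that left out 1 animal and in 4 of 8 other settings, and with scaling to acinar markers the interaction was -0.40 (adjusted p = 0.688). Gatm and Gnmt were chosen by their low values after caerulein, which enter both interactions, so these tests are not independent of the choice.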

How the results depend on the processing

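No paired analysis was run, since each library is from a different mouse and the labels name no pairs of animals. The counts of members called in saline and at 8 h, 0 each, were the same under every alternative run. Several alternatives called few genes of any kind, so a count of 0 there says little about the members. In saline, acinar scaling called 0 of 12856 genes, and a spread from only the groups compared called 1 higher and 0 lower. At 8 h, these settings called 4 higher and 2 lower, and 2 higher and 2 lower, of 12861 genes. At 24 h, the count stayed at 2 with acinar scaling, but with Cbs and Cth called higher in place of Gatm and Gamt called lower. At 48 h, the 8 members called became 5, all higher, with scaling to acinar markers, and 0 with a spread from only the groups compared. Acinar scaling called 94.1% of all genes higher, and the other setting called 7 higher and 12 lower of 12867 genes. For the interaction from saline to 24 h, the 1 member called became 0 with the total taken without enzyme and Reg genes and 0 with acinar scaling. For the interaction from 8 h to 48 h, the 1 member called became 0 with a pseudocount of 0.1, 0 with the total without enzyme and Reg genes, 0 with a spread from only the groups compared, 2 with zeros kept, 3 with the filter of 5 FPKM, 3 with the upper quartile and 2, both higher, with acinar scaling (4, all higher, when HET 48 h replicate 3 was left out too, an alternative chosen after seeing the data). In this interaction acinar scaling called 89.1% of all genes higher, and 85.6% when HET 48 h replicate 3 was left out too. The 73 pathway genes called from 8 h to 48 h in WT became 15 with acinar scaling. The causes of these moves were not tested, except that acinar scaling by its construction removes what the members share with the markers.

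Leaving out 1 animal gave 1 to 3 members called at 24 h, 5 to 8 at 48 h, 0 to 1 for the interaction to 24 h and 0 to 5 for the interaction from 8 h to 48 h. In the same order, the number of all genes called lower ran from 140 to 387, 317 to 1060, 65 to 354 and 9 to 219. It gave 62 to 66 and 68 to 77 pathway genes from saline to 24 h in WT and HET, and 66 to 69 and 64 to 70 from 8 h to 48 h.

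Most changes of sign came from scaling to acinar markers, which moved the median of all genes to 0.08 in saline, 0.23 at 8 h, 1.70 at 24 h, 3.15 at 48 h, and 1.57 and 2.91 for the interactions to 24 h and from 8 h to 48 h. In saline it gave Cbs 0.003, Cth 0.13 and Slc38a5 0.21. At 8 h it gave Gatm 0.23, Gamt 0.13, Ahcy 0.08, Cth 0.25, Slc38a5 0.14 and Sephs2 0.13. At 24 h it gave Gamt 0.26, Gnmt 0.34, Ahcy 0.91, Cbs 1.56, Slc38a5 0.91 and Sephs2 1.34. At 48 h it gave Gatm 1.86, Gamt 0.92, Ahcy 2.12, Cbs 1.70, Cth 2.02, Slc38a5 0.14 and Sephs2 2.66. For the interaction to 24 h it gave Gamt 0.41, Gnmt 0.09, Ahcy 0.93, Cbs 1.55, Slc38a5 0.70 and Sephs2 1.40. For the interaction from 8 h to 48 h it gave Gatm 1.63, Gamt 0.79, Ahcy 2.04, Cbs 1.34, Cth 1.77, Slc38a5 0.001 and Sephs2 2.53. Without HET 48 h replicate 3, acinar scaling gave Gatm 1.11, Gamt 0.48, Ahcy 1.40, Cbs 0.92, Cth 1.38 and Sephs2 1.79 at 48 h, and Gatm 0.88, Gamt 0.35, Ahcy 1.33, Cbs 0.56, Cth 1.13 and Sephs2 1.66 for the interaction from 8 h to 48 h. The total without enzyme and Reg genes turned Gatm (0.08), Cth (0.09) and Sephs2 (0.03) at 8 h and the interaction of Cbs to 24 h (0.04). The 18 sign changes on leaving out 1 animal were all in differences that no test called: in saline, Gnmt ran from -0.20 to 0.11, Cth from -0.43 to 0.15 and Slc38a5 from -0.26 to 0.19. At 8 h, Gatm ran from -0.21 to 0.004, Cbs from -0.24 to 0.19, Slc38a5 from -0.54 to 0.14 and Sephs2 from -0.25 to 0.02. At 24 h, Cbs ran from -0.87 to 0.005, and its interaction from -0.62 to 0.26.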
